A study of Mus musculus with 4 samples.

Results

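The genes described here are 40 enzymes and transporters that build the chondroitin sulfate, dermatan sulfate and heparan sulfate chains of proteoglycans. They were taken by name from the 55487 genes of the deposited count table, and all 40 had a row in it. The list was chosen with earlier results of these data known, so counts over it are a description. By role they are 5 enzymes of the linker, 6 of chondroitin polymerisation, 10 of chondroitin and dermatan modification, 5 of heparan polymerisation, 10 of heparan modification and 4 genes of sulfate supply. After the filter on low counts 39 of the 40 could be tested, and Ndst3 could not.

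Both kinds of chain start from the same short linker of sugars, which is built onto a serine of a core protein. The next sugar added decides which chain follows: N-acetylgalactosamine starts chondroitin and N-acetylglucosamine starts heparan. Polymerases then lengthen the chain by alternating that amino sugar with glucuronic acid, epimerases turn part of the glucuronic acid into iduronic acid, and sulfotransferases place sulfate from the donor PAPS. Chondroitin sulfate on aggrecan holds the water that lets cartilage bear load, and heparan sulfate on cell-surface and pericellular core proteins binds growth factors, such as FGFs, and morphogens of the growth plate.

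RNA came from skeletal stem cells sorted from the metaphyses of long bones of wild-type mice. Cells of 2 libraries came from sham-operated mice and cells of 2 libraries from ovariectomized mice. Taking out the ovaries lowers oestrogen, and in rodents it serves as a model of bone loss after menopause. All 4 libraries carry a time of 8 weeks, which could be an age or a time after surgery. The labels list the antigens stained for the sort but not the gate, and they do not say that the libraries of a group came from separate animals, so p-values measure the spread between these libraries, which may be technical.

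The libraries held between 18291436 and 23721078 counts, and a single count was worth between 0.0423 and 0.0519 CPM (counts scaled to a common library size, with TMM correcting for differences in RNA composition). Of 17120 genes tested with edgeR's quasi-likelihood test, 716 (4.18%) changed at a Benjamini-Hochberg adjusted p under 0.05, with 510 (2.98%) higher and 206 (1.2%) lower after ovariectomy. Higher genes were 71.2% of these calls, 82.2% when libraries were scaled by their totals alone and 58.6% with an offset for GC content and length. Those alternatives moved the median log2 fold change of all genes by 0.11 and -0.09. Of 6 tested antigens of the sort, 1 was lower and 0 higher (2 higher at an unadjusted p under 0.05), with a median log2 fold change of 0.57. Cd200 fell (271 to 164 CPM on average, edgeR adjusted p = 0.0462, not called with library totals), Itgav (CD51) was at 0.03 on the log2 scale and Ptprc (CD45) at -0.57. Eng (CD105), Enpep (6C3) and Tek (Tie2) lay above both sham libraries in both ovariectomy libraries, at 1.10, 1.23 and 1.59 on the log2 scale, and did not pass. Such a placing was held by 25.5% of all genes. A higher call was made for 1 of these antigens in genes with a mean of 5 CPM or more, under the replicate block and under limma-voom, and for 2 if unfiltered or without sham 2. Thy1 (CD90) had between 3 and 5 counts a library. Without either ovariectomy library no gene was called in the whole table. Such a fit takes its spread from the sham pair alone, so it could not judge whether a call below holds without that library. The log2 fold changes of Chst7, Extl1, Hs3st3b1 and Papss2, the enzymes called below, kept their sign in these fits.

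Of the 39 synthesis enzymes tested, 4 changed after ovariectomy. Extl1, Hs3st3b1 and Papss2 fell and Chst7 rose. The 3 lower calls are 7.69% of the tested enzymes, against 1.2% of all genes called lower, and the single higher call is 2.56%, against 2.98% of all genes called higher. The log2 fold change was below 0 for 26 enzymes and above 0 for 13, with a median of -0.29, where the median over all genes was -0.02. Both ovariectomy libraries lay below both sham libraries for 21 tested enzymes (53.8%, against 23.9% of all genes) and above them for 7 (17.9%, against 25.5%). The median of the enzymes minus that of all genes stayed between -0.29 and -0.27 under the scaling alternatives and the GC and length offset, and was -0.17 without ovariectomy 2. At an unadjusted p under 0.05, 12 of the 39 enzymes were lower, where 1341 of the 17120 genes (7.83%) were. A log2 fold change below 0 was held by 51.3% of all genes. Alternative tests and filters called between 5 and 7 enzymes lower, against backgrounds of 2.89% of genes called lower with the DESeq2 test, 1.83% with limma-voom, 1.51% with no filter, 4.02% at a mean of 5 CPM and 1.88% with the GC and length offset.

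**Figure D1:**
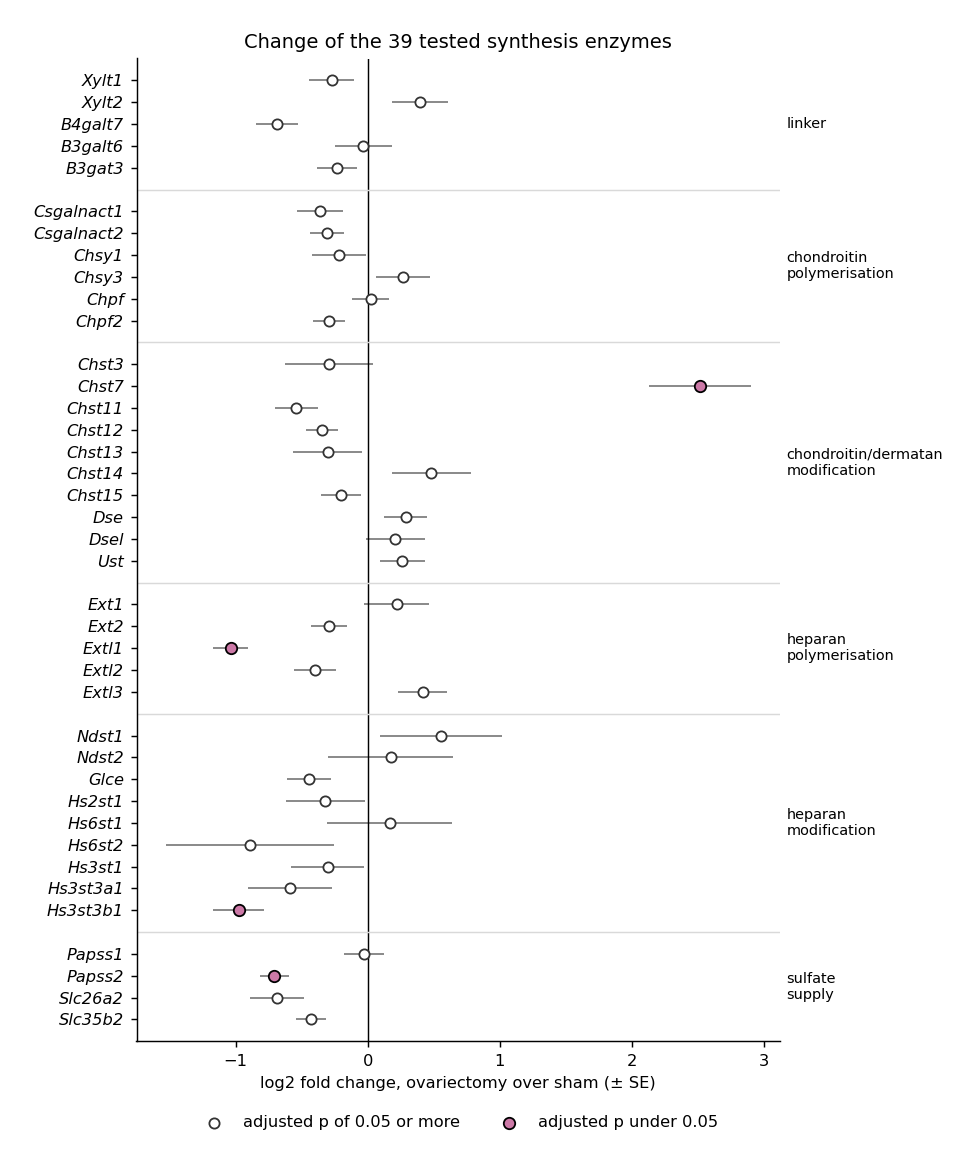
Log2 fold change (horizontal axis, ovariectomy over sham) of the 39 tested synthesis enzymes with its standard error as a bar, ordered by role. Filled points passed an adjusted p of 0.05: Extl1, Hs3st3b1 and Papss2 lie left of 0 and Chst7 right of it, and most open points lie between -0.7 and 0.6.

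Most log2 fold changes below 0 belonged to enzymes that were abundant in these cells. A division at a mean of 30 CPM was chosen after the values were seen. Of the 21 enzymes above it, 18 (85.7%) had a log2 fold change below 0, against 51.9% of the 4163 genes of that abundance, and 3 were called lower and 0 higher (14.3%, against 3.92% of those genes called lower and 7.16% called higher). At an unadjusted p under 0.05, 12 of the 21 were lower and 0 higher, where 614 of the 4163 genes were lower and 706 higher. Of the 18 tested enzymes under it, 8 had a log2 fold change below 0 and 10 above, with a median of 0.17, and Chst7 was the only call (1.64% of all genes under 30 CPM were called higher and 0.332% lower). Their standard errors were larger, with a median of 0.29 log2 units against 0.15 for the abundant enzymes.

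Read per kilobase of exon, a scale on which genes can be compared, the abundant enzymes were few. The sulfate-activating Papss2 stood at 175 and 177 CPM per kb in sham, the chondroitin sulfotransferase Chst12 at 175 and 171, and the PAPS transporter Slc35b2 at 109 and 101. In ovariectomy libraries Papss2 was at 113 and 103 CPM per kb, Chst12 at 148 and 125, and Slc35b2 at 80.2 and 75.6. Papss2 and Chst12 did not differ beyond their spread in sham, and in the ovariectomy libraries Chst12 lay above Papss2. The next enzymes in sham were the chondroitin polymerising factor Chpf and the exostosins Extl1 and Ext2, with means of 45.5, 44.3 and 39.7 CPM per kb, and their libraries overlapped. At the low end the heparan N-deacetylase Ndst3 had a mean of 0.0677 CPM per kb in sham, and Hs6st2, Hs6st1, Chst7, Ndst2, Hs2st1 and Ndst1 were also below 1. Extl1 went from rank 5 to rank 6 of 40 and Chst7 from rank 37 to rank 29.

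**Figure D2:**
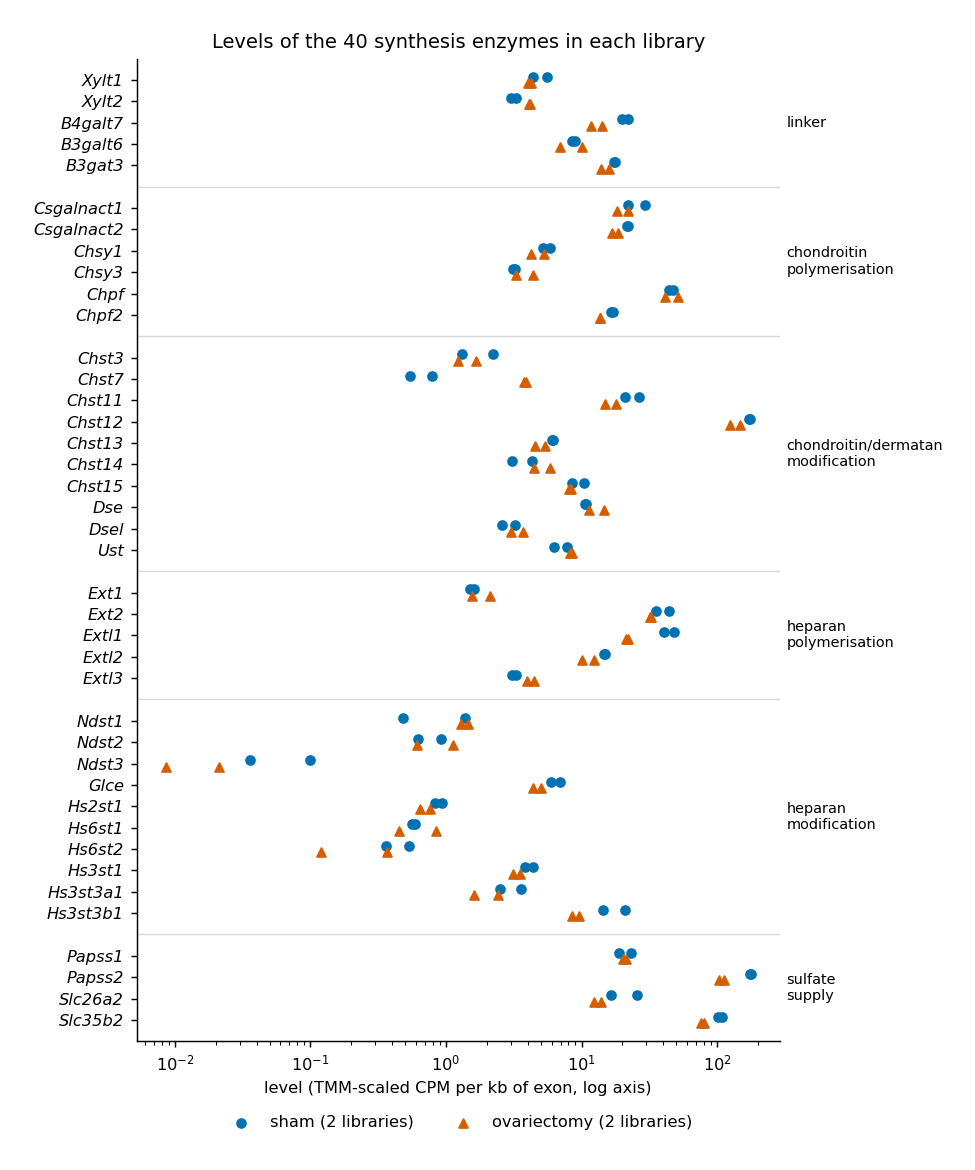
Level of each of the 40 synthesis enzymes (horizontal axis, TMM-scaled CPM per kb of exon, log axis) in the 2 sham libraries (circles) and the 2 ovariectomy libraries (triangles), by role. Papss2, Chst12 and Slc35b2 lie farthest right, Ndst3 farthest left, and the triangles of Chst7 lie well to the right of its circles.

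Lists of cell type markers moved beside the enzymes. Over all genes, 2.98% were called higher and 1.2% lower. Of 16 chondrocyte markers, 11 were lower and 0 higher, and their summed level was between 117002 and 127588 CPM in sham and between 67012 and 74588 CPM in ovariectomy libraries. Col2a1, Col9a1, Col11a1 and Col11a2, cartilage collagens, fell with log2 fold changes between -0.86 and -0.77. The 1 marker of this list above 0 was at 0.35, with both ovariectomy libraries above sham, and was not called. Of 12 osteoblast markers, 4 were lower and 1 higher, with Spp1, Ibsp, Sp7 and Alpl the lower ones. The higher one, at 0.62, was the only marker of the list with a log2 fold change above 0. This list summed to 95855 to 130537 CPM after sham surgery and 78942 to 87429 CPM after ovariectomy. Of 10 fibroblast markers, 8 were higher and 0 lower, led by Dpt, Ly6a, Cd248 and Pdgfra, with sums of 4570 to 5344 CPM after sham surgery and 10338 to 12722 CPM after ovariectomy. Of 10 pericyte and smooth muscle markers, 3 were higher and 0 lower (Des, Acta2 and Rgs5), with sums of 311 to 343 CPM after sham surgery and 588 to 638 CPM after ovariectomy.

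Markers of blood and vessel cells were scarcer. Their calls stand beside 2.98% of all genes called higher and 1.2% called lower. Of 10 endothelial markers 0 were called (1 at an unadjusted p under 0.05), with sums of 17.3 and 60.9 CPM after sham surgery and 55.9 to 86.4 CPM after ovariectomy, and Tie1 and Kdr had the smallest p. Cdh5 and Emcn were at 0 in sham 1. Leukocyte markers had 2 of 10 tested members higher, Mpo and Elane, with sums of 48.7 to 63.3 CPM after sham surgery and 131 to 199 CPM after ovariectomy, and Cd3e, a T cell marker, was at 0 in 3 of the 4 libraries. Erythroid markers had 3 of 9 tested members higher, Car1, Klf1 and Ermap, with sums of 31.2 to 50.1 CPM after sham surgery and 146 to 194 CPM after ovariectomy, and Klf1 and Slc4a1 were at 0 in sham 2. Mpo and Spp1 share 15.0% and 18.8% of their exon length with another gene. The part of these marker changes in the values of the enzymes was not tested. In such bulk libraries fewer cells of a type and less RNA per cell cannot be told apart.

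The bases before the transcription start are shown for the 4 enzymes that changed, to set the members that fell beside the member that rose. Each run is the 250 bases upstream of the outermost RefSeq start of the gene (GRCm38.p6), 5′ to 3′ on the strand of the gene, with matches to the motifs searched in capitals. The windows are chr4:134372548-134372797 (minus strand) for Extl1, chr11:63922285-63922534 (minus strand) for Hs3st3b1, chr19:32595465-32595714 (plus strand) for Papss2 and chrX:20059320-20059569 (plus strand) for Chst7.
Extl1: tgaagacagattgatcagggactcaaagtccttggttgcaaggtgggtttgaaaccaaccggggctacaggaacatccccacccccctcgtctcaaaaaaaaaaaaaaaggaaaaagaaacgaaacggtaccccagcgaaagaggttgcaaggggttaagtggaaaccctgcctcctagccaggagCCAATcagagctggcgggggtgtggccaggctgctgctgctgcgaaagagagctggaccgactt
Hs3st3b1: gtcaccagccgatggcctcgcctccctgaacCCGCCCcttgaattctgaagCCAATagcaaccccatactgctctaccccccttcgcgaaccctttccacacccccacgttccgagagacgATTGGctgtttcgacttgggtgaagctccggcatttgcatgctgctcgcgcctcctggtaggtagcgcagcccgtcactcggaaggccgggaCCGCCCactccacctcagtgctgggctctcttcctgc
Papss2: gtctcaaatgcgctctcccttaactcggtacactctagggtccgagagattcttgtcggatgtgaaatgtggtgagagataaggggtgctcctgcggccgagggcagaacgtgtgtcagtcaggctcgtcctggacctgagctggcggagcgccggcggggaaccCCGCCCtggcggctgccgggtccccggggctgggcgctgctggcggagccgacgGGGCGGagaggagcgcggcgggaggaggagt
Chst7: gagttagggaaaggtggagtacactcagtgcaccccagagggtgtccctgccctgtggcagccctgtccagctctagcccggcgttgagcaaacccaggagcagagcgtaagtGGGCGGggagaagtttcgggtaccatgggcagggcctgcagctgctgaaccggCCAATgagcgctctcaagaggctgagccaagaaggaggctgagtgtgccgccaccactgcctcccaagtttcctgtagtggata

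Motifs were searched on both strands: the GC box GGGCGG, the CCAAT box CCAAT, the TATA box TATAAA, the AP-1 site TGANTCA, the SOX cores ACAAAG and ACAATG, and the palindromic oestrogen response element. GC boxes were matched in Chst7 (1), Hs3st3b1 (2) and Papss2 (2) and in 32.7% of the 32851 RefSeq windows of the same length. CCAAT boxes were matched in Chst7 (1), Extl1 (1) and Hs3st3b1 (2) and in 33.8% of all windows. The other 5 motifs were not matched in these 4 windows, and their letters stood in 12.4%, 6.7%, 16.5%, 10.7% and 0.1% of all windows in the order given. Counted per gene, with a match in any of its windows, 23 of the 33 synthesis enzymes with a RefSeq window held a GC box. A CCAAT box was held by 16 and a TATA box by 1. These counts cannot be set against the shares above, which are per window. The share per gene over all genes was not computed. Both kinds of match in the window of the higher gene also stood in a window of a lower gene. The RefSeq start of Extl1 lies inside the gene as GENCODE draws it, so this window is not the region before its outermost GENCODE start. Papss2 has 2 RefSeq starts, and counts per gene do not separate them. Its window ends at 32595714, before the GENCODE start of the gene at 32595790. The last 30 transcribed bases stored for this RefSeq start were not found in a GENCODE transcript of Papss2, so this start is not one that GENCODE draws.

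Enzymes of the linker were read first. Of the 5, 0 passed the test and the median log2 fold change was -0.24, with 4 below 0. At an unadjusted p under 0.05, 1 was lower, where 7.83% of all genes were. B4galt7, the first galactosyltransferase of the linker, was at 57.7 and 63.6 CPM after sham surgery and 41.2 and 34.0 CPM after ovariectomy. The groups do not overlap, and its log2 fold change of -0.69 ± 0.16 SE missed the threshold (edgeR adjusted p = 0.0621). It was called lower in 8 of 13 alternatives, among them the DESeq2 test (adjusted p = 0.00790) and limma-voom (0.0364). Xylt1 and Xylt2, the xylosyltransferases that start the linker, stood on opposite sides of 0, at -0.27 ± 0.17 and 0.40 ± 0.21 SE. Xylt1 was at 53.9 and 42.3 CPM after sham surgery and 40.9 and 38.7 CPM after ovariectomy, and Xylt2 at 13.0 and 12.0 CPM after sham surgery and 16.4 and 16.7 CPM after ovariectomy. The ratio of Xylt1 to Xylt2 per kilobase was 1.71 and 1.45 after sham surgery and 1.03 and 0.957 after ovariectomy. B3galt6, which adds the second galactose, and B3gat3, which adds the closing glucuronic acid, had log2 fold changes of -0.03 and -0.24, and the sign of B3galt6 turned when libraries were scaled by totals alone (0.069).

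Of the 6 chondroitin polymerisation enzymes, 0 passed the test, and the median log2 fold change was -0.25. At an unadjusted p under 0.05, 2 were lower and 0 higher, where 7.83% of all genes were lower and 10.6% higher. Csgalnact1 and Csgalnact2, which add the first N-acetylgalactosamine and so commit the linker to chondroitin, were both lower in both ovariectomy libraries. Among all genes, 23.9% lay below both sham libraries in this way. Csgalnact1 was at 150 and 113 CPM after sham surgery and 112 and 92.5 CPM after ovariectomy (edgeR log2 fold change -0.36 ± 0.18 SE, adjusted p = 0.341), and its log2 fold change was -0.13 without sham 1 and -0.54 without sham 2. Csgalnact2 was at 118 and 120 CPM after sham surgery and 90.6 and 102 CPM after ovariectomy (-0.31 ± 0.13 SE, adjusted p = 0.252). Of the synthases that lengthen the chain, Chsy1 had a log2 fold change of -0.22 and Chsy3 one of 0.27, and neither passed. The polymerising factor Chpf was at 169 and 182 CPM after sham surgery and 196 and 160 CPM after ovariectomy, a log2 fold change of 0.02 with a 95% interval of -0.30 to 0.35, and its sign turned with upper-quartile scaling (-0.021) and the GC and length offset (-0.14). Chpf2, its relative, was at -0.29 ± 0.12 SE, and 44.1% of its exon length is shared with Smarcd3 on the opposite strand.

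Among the sulfotransferases of chondroitin, Chst7 rose. Chst7 (ENSMUSG00000037347, chromosome X, 20059560 to 20097521, plus strand, GRCm38) is a 6-O sulfotransferase of N-acetylgalactosamine. It had 39 and 27 counts in sham and 204 and 159 counts in ovariectomy libraries, which is 1.74 and 1.20 CPM against 8.63 and 8.26 CPM. The ovariectomy libraries lay close together and far above both sham libraries. The rise was 5.72-fold (edgeR log2 fold change 2.52 ± 0.38 SE, adjusted p = 0.0151), and it stayed between 2.29 and 2.81 over the 13 alternatives. Chst3, the other chondroitin 6-O sulfotransferase, was at 8.47 and 14.4 CPM after sham surgery and 7.91 and 10.8 CPM after ovariectomy, and the groups overlap (-0.29 ± 0.33 SE, adjusted p = 0.745). Per kilobase, Chst7 stood at 0.605 and 0.246 of Chst3 after sham surgery and at 3.21 and 2.25 of it after ovariectomy. On this scale the order of the pair was opposite in the groups, and it depends on the exon lengths used. In CPM, Chst7 lay above Chst3 in ovariectomy 1 (8.63 against 7.91) and below it in ovariectomy 2 (8.26 against 10.8).

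None of the 3 chondroitin 4-O sulfotransferases passed the test, and each had a log2 fold change below 0. Chst11 was at 147 and 116 CPM after sham surgery and 99.5 and 81.9 CPM after ovariectomy, without overlap. Its log2 fold change of -0.54 ± 0.17 SE did not pass (edgeR adjusted p = 0.134, and 0.0171 to 0.715 over the alternatives, with 5 of 13 calling it lower). Chst12 was at 414 and 405 CPM after sham surgery and 349 and 296 CPM after ovariectomy (-0.34 ± 0.12 SE, adjusted p = 0.187). Chst13, the least abundant of the 3, had a log2 fold change of -0.30 ± 0.26 SE. Chst15, which adds a second sulfate to 4-sulfated units, was at -0.20 ± 0.15 SE, and 17.9% of its exon length is shared with Gm10584 on the opposite strand.

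Dermatan enzymes had log2 fold changes above 0, with 95% intervals that all spanned 0. Of these 4, 0 passed the test (0 at an unadjusted p under 0.05). Dse and Dsel, the epimerases that turn chondroitin into dermatan, had log2 fold changes of 0.29 ± 0.16 and 0.21 ± 0.22 SE. Chst14, the dermatan 4-O sulfotransferase, was at 9.05 and 6.41 CPM after sham surgery and 9.39 and 12.3 CPM after ovariectomy (0.48 ± 0.30 SE, edgeR adjusted p = 0.474). Ust, the uronyl 2-O sulfotransferase, was at 28.8 and 35.8 CPM after sham surgery and 39.3 and 38.1 CPM after ovariectomy (0.26 ± 0.17 SE, adjusted p = 0.496). Chst14, Dse and Ust were above both sham libraries in both ovariectomy libraries, as were 25.5% of all genes, and Dsel overlapped. Whether the dermatan enzymes differ in their change from the chondroitin 4-O sulfotransferases was not tested. Both sets belong to the role of 10 chondroitin and dermatan modification enzymes. That role had a median log2 fold change of 0.0051, with 5 enzymes below 0 and 5 above.

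Of the heparan polymerisation enzymes, Extl1 fell. Extl1 (ENSMUSG00000028838, chromosome 4, 134356372 to 134383850, minus strand) belongs to the exostosin family and can transfer N-acetylglucosamine to a growing heparan chain. It was at 209 and 176 CPM after sham surgery and 95.8 and 91.3 CPM after ovariectomy. Both ovariectomy libraries were near the same level and well below sham, a 2.05-fold decrease (edgeR log2 fold change -1.04 ± 0.13 SE, adjusted p = 0.00828). The change lay between -1.21 and -0.91 over the 13 alternatives. Ext2, a subunit of the heparan polymerase, was at 323 and 259 CPM after sham surgery and 235 and 239 CPM after ovariectomy (-0.29 ± 0.14 SE, adjusted p = 0.314), and its log2 fold change was -0.12 without sham 1 and -0.43 without sham 2. Its partner Ext1, at 13.0 and 12.2 CPM after sham surgery and 12.5 and 16.9 CPM after ovariectomy, overlapped between the groups (0.22 ± 0.25 SE, adjusted p = 0.735).

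Extl2 and Extl3, which act where the linker meets the heparan chain, had opposite signs. Extl2, which can also stop a chain by adding N-acetylglucosamine to a phosphorylated linker, was at 50.5 and 51.5 CPM after sham surgery and 34.7 and 42.8 CPM after ovariectomy (-0.40 ± 0.16 SE, edgeR adjusted p = 0.242). Extl3, which starts the heparan chain, was at 18.6 and 19.9 CPM after sham surgery and 27.2 and 24.1 CPM after ovariectomy (0.42 ± 0.18 SE, adjusted p = 0.293). Neither passed, although the groups do not overlap for either, as for 49.3% of all genes. Extl3 stood at 0.209 and 0.219 of Extl2 per kilobase after sham surgery and at 0.446 and 0.320 after ovariectomy.

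Of 9 tested heparan modification enzymes, 1 was called lower, Hs3st3b1, and 0 higher. Over all genes 1.2% were called lower and 2.98% higher. Hs3st3b1 (ENSMUSG00000070407, chromosome 11, 63885792 to 63922290, minus strand) is a 3-O sulfotransferase that acts late on the heparan chain. It was at 103 and 71.2 CPM after sham surgery and 46.8 and 41.6 CPM after ovariectomy. The sham libraries were far apart, and both lay above ovariectomy (1.97-fold lower, -0.98 ± 0.20 SE on the log2 scale, by edgeR with adjusted p = 0.0398). The change was -0.68 without sham 1 and -1.21 without sham 2, and scaling by totals alone lost the call (edgeR adjusted p = 0.0520). Hs3st3a1, which makes the same kind of mark and lies on the same chromosome, was at 14.1 and 9.79 CPM after sham surgery and 9.51 and 6.34 CPM after ovariectomy (-0.59 ± 0.32 SE, adjusted p = 0.402). A share of 32.9% of the exon length of Hs3st3a1 overlaps F930015N05Rik on the opposite strand. Hs3st1, the third member of the family here, had a log2 fold change of -0.30 ± 0.27 SE.

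None of the other tested enzymes of heparan modification passed. Glce, the epimerase that makes iduronic acid, was at 40.3 and 47.1 CPM after sham surgery and 29.9 and 34.4 CPM after ovariectomy (-0.45 ± 0.17 SE, edgeR adjusted p = 0.212). The N-deacetylase and N-sulfotransferase Ndst1, which begins modification, was at 3.97 and 11.4 CPM after sham surgery and 11.9 and 10.6 CPM after ovariectomy. The groups overlap because sham 1 and sham 2 differed widely, and the log2 fold change of 0.55 was -0.010 without sham 1 and 1.52 without sham 2, where it was called (adjusted p = 0.0130). Ndst2, Hs6st1 and Hs6st2 each had between 22 and 120 counts a library. Their 95% intervals of the log2 fold change were wide, at -0.94 to 1.28 for Ndst2, -0.94 to 1.27 for Hs6st1 and -2.39 to 0.60 for Hs6st2. Ndst3 had 22 and 8 counts in sham and 2 and 4 counts in ovariectomy libraries, a ratio of sham to ovariectomy of 4.78 (exact binomial 95% interval 1.96 to 14.0, counting error only). Hs2st1, the 2-O sulfotransferase, had a log2 fold change of -0.32 ± 0.30 SE.

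All 4 genes of sulfate supply had a log2 fold change below 0, as 51.3% of all genes had, though Papss1 stood at only -0.02. Papss2 was the 1 gene called lower, where 1.2% of all genes were. Papss2 (ENSMUSG00000024899, chromosome 19, 32595790 to 32667187, plus strand) makes PAPS, the sulfate donor of every sulfotransferase above, and its loss stunts the skeleton in mice and humans. It was at 651 and 658 CPM after sham surgery and 419 and 383 CPM after ovariectomy. The sham libraries were nearly equal, and both ovariectomy libraries lay well below them (1.63-fold lower, -0.71 ± 0.11 SE on the log2 scale, by edgeR with adjusted p = 0.0148, between -0.78 and -0.60 over the 13 alternatives). Papss1, the form found in most tissues, was at 57.8 and 70.9 CPM after sham surgery and 61.2 and 65.3 CPM after ovariectomy, with overlap. Its log2 fold change of -0.02 had a 95% interval of -0.38 to 0.33, and its sign turned when libraries were scaled by totals alone (0.084). Per kilobase Papss2 exceeded Papss1 by 9.24 and 7.61 times after sham surgery and by 5.62 and 4.81 times after ovariectomy.

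The 2 transporters of sulfate supply had log2 fold changes below 0 that did not pass the test. Slc26a2, the sulfate carrier of the cell membrane whose defects cause human chondrodysplasias, was at 317 and 205 CPM after sham surgery and 171 and 152 CPM after ovariectomy. The groups do not overlap, but sham 1 lay far above sham 2, and the log2 fold change of -0.69 ± 0.20 SE (edgeR adjusted p = 0.124) was -0.34 without sham 1 and -0.96 without sham 2, where it was called (0.000737). Slc35b2, which carries PAPS into the Golgi, was at 338 and 313 CPM after sham surgery and 249 and 235 CPM after ovariectomy (-0.43 ± 0.11 SE, adjusted p = 0.0937). It was called lower with the DESeq2 test (0.00772), under limma-voom (0.0390), in genes with a mean of 5 CPM or more (0.0380) and with the GC and length offset (0.0459).

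**Figure D3:**
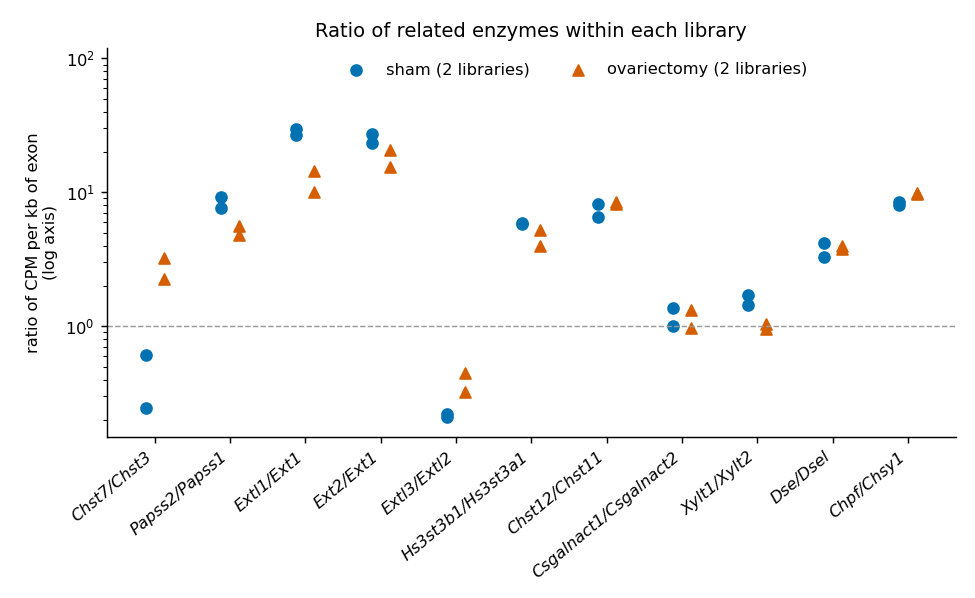
Ratio of 11 pairs of related synthesis enzymes within each library (vertical axis, ratio of TMM-scaled CPM per kb of exon, log axis), with the 2 sham libraries as circles and the 2 ovariectomy libraries as triangles. The ratio of Chst7 to Chst3 lies below 1 in sham and above 1 after ovariectomy, the ratios of Papss2 to Papss1 and Extl1 to Ext1 are lower after ovariectomy, and Csgalnact1 to Csgalnact2 and Dse to Dsel overlap.

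Ratios within a library do not depend on how libraries were scaled. Of 11 pairs of related enzymes, set by hand, 9 had ratios that did not overlap between the groups. The called Chst7, Papss2, Extl1 and Hs3st3b1 are each in a pair, so those ratios are not independent of the fold changes above. Of single genes, 49.3% did not overlap in one direction or the other, and the share among other pairs of genes was not computed, so the count is a description. The ratios were not tested, and an exact permutation test of 2 libraries against 2 gives no p below 0.333. Extl1 exceeded Ext1 by 29.8 and 26.8 times per kilobase after sham surgery and by 14.3 and 10.1 times after ovariectomy. Hs3st3b1 exceeded Hs3st3a1 by 5.86 and 5.83 times after sham surgery and by 3.95 and 5.27 times after ovariectomy.

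By chain type, the 16 chondroitin and dermatan enzymes held 1 call, Chst7, and the 14 tested heparan enzymes 2, Extl1 and Hs3st3b1, where 2.98% of all genes were called higher and 1.2% lower. The difference between the chain types was not tested. Their median log2 fold changes were -0.21 and -0.31. Summed per kilobase, the chondroitin and dermatan enzymes were at 364 and 352 CPM per kb after sham surgery and 325 and 290 CPM per kb after ovariectomy, which puts the ovariectomy mean at 85.9% of sham. The heparan enzymes were at 149 and 128 CPM per kb after sham surgery and 94.0 and 94.2 CPM per kb after ovariectomy, at 68.0% of sham. The ratio of the sums was 2.45 and 2.74 after sham surgery and 3.45 and 3.08 after ovariectomy, without overlap and without a test. These sums are set by few genes, Chst12 on the chondroitin side and Extl1, Ext2 and Hs3st3b1 on the heparan side.

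The core proteins that carry the chains moved in both directions. For comparison, 2.98% of all genes were called higher and 1.2% lower. Of 16 chondroitin and dermatan sulfate core proteins, 15 were tested, with 2 lower and 1 higher and a median log2 fold change of -0.41. Acan (aggrecan), the main carrier of cartilage, fell from 1700 and 1542 CPM in sham to 950 and 845 CPM in ovariectomy libraries (edgeR log2 fold change -0.85 ± 0.11 SE, adjusted p = 0.00830). Col9a2, a chain of collagen IX, the type of collagen that can carry chondroitin sulfate, fell by 0.78 on the log2 scale (adjusted p = 0.0233). Thbd (thrombomodulin), an anticoagulant receptor that can carry a chondroitin sulfate chain, rose 4.42-fold from 19.4 and 32.1 CPM to 111 and 116 CPM. Of 14 heparan sulfate core proteins, 12 were tested, with 2 higher and 1 lower and a median of -0.01. Sdc2 (syndecan-2) rose from 228 and 280 CPM in sham to 567 and 568 CPM (log2 fold change 1.16 ± 0.13 SE, adjusted p = 0.00537), and Col18a1, a basement membrane core protein, rose 2.77-fold. Gpc6 (glypican-6), a core protein needed for growth plate chondrocytes, fell from 226 and 169 CPM to 122 and 105 CPM (-0.80 ± 0.17 SE, adjusted p = 0.0466, and not called with library totals).

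Of 10 further synthesis and editing enzymes, 4 could be tested, with 2 higher and 1 lower. The shares of all genes were 2.98% called higher and 1.2% called lower. Sulf1 and Sulf2, extracellular sulfatases that take 6-O sulfate off heparan, went from 29.7 and 40.6 CPM to 66.0 and 91.5 CPM (edgeR log2 fold change 1.16 ± 0.22 SE, adjusted p = 0.0310) and from 18.7 and 20.5 CPM to 35.3 and 44.4 CPM (1.02 ± 0.19 SE, adjusted p = 0.0280). In the same list Pxylp1 fell from 164 and 158 CPM to 98.0 and 86.4 CPM (-0.80 ± 0.13 SE, edgeR adjusted p = 0.0165). Pxylp1 removes the phosphate that Fam20b puts on the xylose of the linker. Fam20b itself was at 151 and 155 CPM after sham surgery and 112 and 121 CPM after ovariectomy and was not called (adjusted p = 0.128). Ndst4, Hs6st3, Hs3st2, Hs3st4, Hs3st5 and Hs3st6 had between 0 and 15 counts a library and were too low to test.

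Genes that make the sugar donors rose in part. Of 15 genes of nucleotide sugar and sulfate handling, 4 were higher and 0 lower, with a median log2 fold change of 0.01. The shares over all genes were 2.98% higher and 1.2% lower. Uap1, which makes UDP-N-acetylglucosamine, went from 298 and 319 CPM in sham to 742 and 829 CPM (edgeR log2 fold change 1.35 ± 0.11 SE, adjusted p = 0.00285). Gfpt2, an enzyme that sends fructose phosphate into amino sugars, went from 784 and 675 CPM to 1608 and 1700 CPM (1.18 ± 0.11 SE, adjusted p = 0.00427). Ugp2, which makes UDP-glucose, rose 2.30-fold, and Ugdh, which oxidises it to UDP-glucuronic acid, rose 1.92-fold from 547 and 500 CPM to 1037 and 975 CPM. Slc35d1, which carries chondroitin precursors into the endoplasmic reticulum, was at -0.50 ± 0.15 SE on the log2 scale and was not called (edgeR adjusted p = 0.124). These donors also feed hyaluronan, a chain without core protein or sulfate, whose synthase Has1 was at 93.5 and 136 CPM after sham surgery and 3226 and 3672 CPM after ovariectomy. Has2, another synthase, was at 2.10 and 4.32 CPM after sham surgery and 1.35 and 2.13 CPM after ovariectomy, with overlap, and was not called (-0.88 ± 0.58 SE, edgeR adjusted p = 0.503).

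Breakdown enzymes had a median log2 fold change of 0.26, and of 16 tested 2 were higher and 0 lower. Among all genes 2.98% were called higher and 1.2% lower. Hpse2, a relative of heparanase that binds heparan sulfate without cutting it, had 1 and 0 counts in sham and 43 and 37 counts in ovariectomy libraries, a ratio of 83.7 (exact binomial 95% interval 14.6 to 3346, counting error only), and was not called with limma-voom. Heparanase itself, Hpse, was at 2.63 and 2.80 CPM after sham surgery and 2.28 and 3.90 CPM after ovariectomy.

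**Figure D4:**
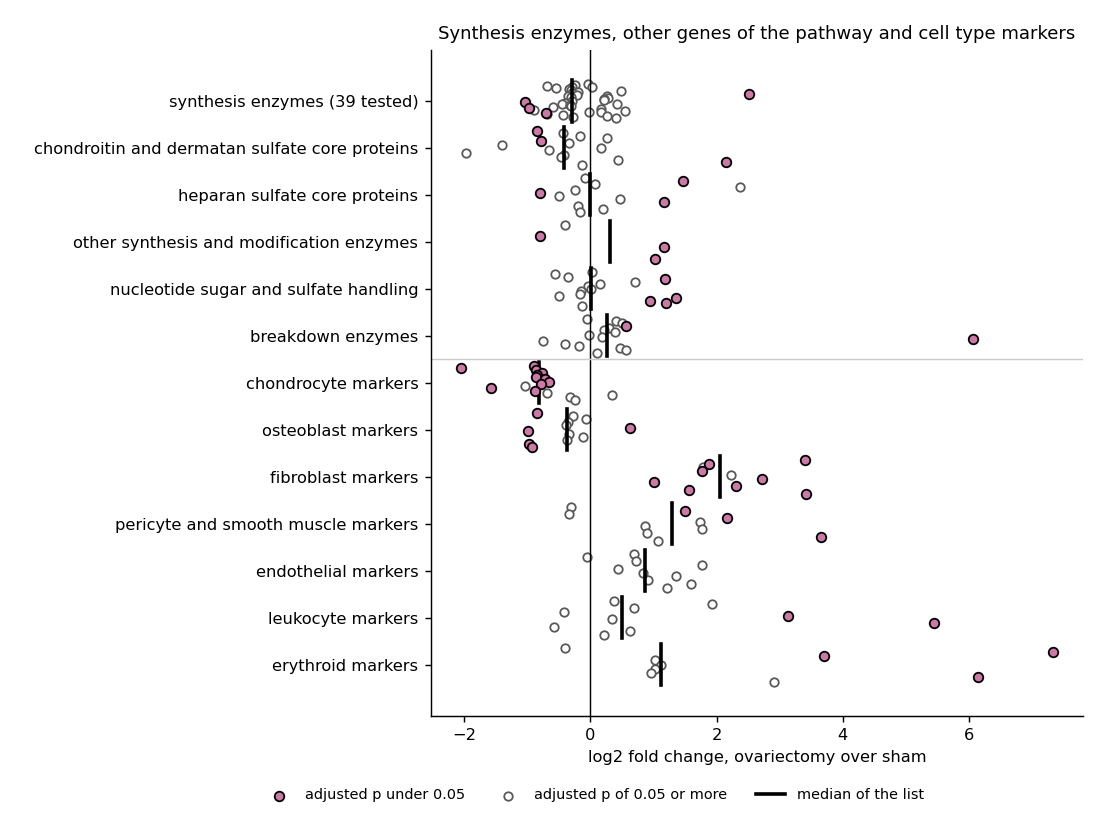
Log2 fold change (horizontal axis, ovariectomy over sham) of the tested genes of each list, with the synthesis enzymes at the top, the other genes of the pathway below them and cell type markers at the bottom. Filled points passed an adjusted p of 0.05 and the thick lines are list medians, which lie at -0.29 for the synthesis enzymes, -0.81 for chondrocyte markers and 2.06 for fibroblast markers.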

How the data were processed

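Bulk RNA-seq counts of 4 libraries were used. The authors deposited 1 table of raw read counts per Ensembl gene, made, per the submitters' processing notes, on GRCm38 (mm10) using featureCounts 2.0.1 as counter and Trim Galore 0.6.6 as trimmer. For the aligner, annotation release and strand setting the entry is "not given in the sources used here", so overlapping genes on opposite strands cannot be separated. GENCODE M21 gave symbol, position and exon length for 55227 of 55487 gene IDs. The other 260 IDs took no more than 0.00462% of any library. Replicates differed by more than sampling noise (chi-square per degree of freedom 20.0 for sham and 9.39 for ovariectomy).

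Genes were kept with filterByExpr, scaled by TMM and compared by group with the two-sided quasi-likelihood test of edgeR 4.0.16 (R 4.3.3), with Benjamini-Hochberg adjustment over 17120 genes. Fold changes are ovariectomy over sham, and an SE is the log2 fold change divided by the square root of F. The model had 2 residual degrees of freedom, a prior of 5.29 and a common biological coefficient of variation of 0.317. The test was tried on simulated ovariectomy and sham counts (3 runs, 17120 genes, 200 altered). It called 33.6% of genes altered by 1 log2 unit and 64.5% of genes altered by 2. Of its 302 calls, 26 were unaltered genes, a share above the 0.05 set as threshold. Fewer genes were altered there than were called in the data (716), so these rates may not carry over. The 13 alternatives used DESeq2 1.42.0 and limma 3.58.1 besides edgeR. All 40 members are named, with values per library for those called, those past 0.5 log2 units without overlap and others of their role. Other lists are named by up to 4 called genes of smallest p, or the 2 smallest where none was called. Genes named outside this rule (Fam20b, Slc35d1, Hpse, Has1, Has2, the further sort antigens and markers at 0) were chosen after their values were seen. The members and lists were chosen with earlier results of these data known, and no p is given over a list. A called gene of the breakdown list is not reported here.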

Additional observations from a re-analysis of the deposited data

How the results depend on the processing

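The number of genes changed was 716, and 1416 with the DESeq2 test, 1105 at a mean of 5 CPM, 1656 if unfiltered and 1074 with the replicate block, and between 0 and 1835 without 1 library. The number of synthesis enzymes lower was 3, and 7 with the DESeq2 test or at a mean of 5 CPM, 6 if unfiltered or the replicate block, 5 with limma-voom or the GC and length offset, and between 0 and 5 without 1 library. B4galt7, Chst11, Slc26a2 and Slc35b2 made up the added calls in these fits. The number higher was 1, and between 0 and 2 without 1 library, the second being Ndst1 without sham 2. Chst7, Extl1 and Papss2 were called under all 11 alternatives that kept both ovariectomy libraries, and Hs3st3b1 under 10. In the fits that leave an arm with 1 library, the lone library is assumed to vary like the other group.

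Of the 39 tested enzymes, 31 kept their sign under all alternatives. The sign turned for B3galt6 (0.069 with library totals, and -0.30 to 0.22 without 1 library), Chpf (-0.021 with upper-quartile scaling, -0.14 with the GC and length offset, -0.12 to 0.18 without 1 library), Papss1 (0.084 with library totals, -0.16 to 0.14 without 1 library) and Hs6st1 (-0.0012 with the GC and length offset, -0.34 to 0.57 without 1 library). Without 1 library it turned for Chst3 (-0.62 to 0.15), Ext1 (-0.0016 to 0.44), Ndst1 (-0.010 to 1.52) and Ndst2 (-0.32 to 0.56). The labels share replicate numbers but do not say that they pair animals, and the deviations of sham 1 and ovariectomy 1 from their group means were uncorrelated across genes (Pearson's r = 0.00429). With the replicate block, calls rose from 716 to 1074 genes and from 4 to 7 enzymes (6 lower, against 1.92% of genes called lower).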
